A study of Mus musculus with 8 samples.

Results

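The genes described here are 39 mouse genes listed as targets of the transcription factor p53, followed in the epidermis of embryos that lacked or kept Noc2l (also called Nir). They were taken from a list of names drawn up with earlier results of these data known. For each gene 1 transcript was used, the one with the largest total count. They make up 39 of the 23146 genes named in the count files, and all 39 passed the filter on low counts, which kept 16342 genes. In the knockout libraries the list did not move as 1 unit. At E15.5, 16 of the 39 genes rose and 6 fell (41% and 15.4%, against 23.2% and 22.3% of all genes tested). At E17.5, 13 rose and 11 fell (33.3% and 28.2%, against 26.7% of all genes in each direction). The receptor gene Eda2r, the BH3-only gene Pmaip1, the apoptosome gene Apaf1, and the signalling genes Sulf2 and Cd80 rose at both stages. The desmosome gene Perp fell 5.10-fold at E15.5 and 16.1-fold at E17.5, while the arrest gene Cdkn1a passed the test at neither stage.

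RNA was sequenced from epidermis peeled off the dermis at 2 stages of development and in 2 genotypes, with 2 libraries for each of the 4 combinations and 8 in all. Controls carried floxed Nir alleles. Knockouts were made by bringing Krt14-Cre, a recombinase driven by the promoter of keratin 14, into the floxed background, so deletion is limited to keratin 14-expressing cells and their descendants. The sources used here do not state the strain, whether embryos were pooled, or whether the 2 libraries of a group came from separate animals, so the p-values measure only the spread between these libraries, which may be technical. Gene counts per library were between 25226357 and 28895657, and levels are given in CPM, the count of a gene scaled to the TMM-adjusted total of its library.

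The protein p53 is a stress-responsive transcription factor that binds a paired decamer in the DNA of its targets and turns them on. These targets include Mdm2, which marks p53 for destruction in a negative feedback loop, the cyclin-dependent kinase inhibitor gene Cdkn1a, and genes of the death receptor and mitochondrial routes to apoptosis. In skin, the relative p63 is the master factor of stratified epithelium and drives some of the same genes, Perp among them. Noc2l encodes an inhibitor of histone acetyltransferases that binds p53.

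Several whole-tissue measures moved with the knockout and touch every result below. Noc2l itself had 107 and 97.4 CPM in the E15.5 controls, 95.6 and 91.6 in the E15.5 knockouts, 106 and 121 in the E17.5 controls, and 85.4 and 86.9 in the E17.5 knockouts. The knockouts lay below the controls at both stages, and the decrease passed the test at E17.5 (log2 fold change -0.39 ± 0.10 SE, adjusted p = 0.0062) but not at E15.5 (-0.13 ± 0.10, adjusted p = 0.34). Which exons are floxed is not given in the sources used here and counts cover the whole transcript, so this level does not check the genotype labels. In the controls, summed basal keratinocyte markers read 7573 to 8167 CPM and suprabasal markers 45350 to 98290 CPM. The same controls read 31550 to 37790 CPM for dermal fibroblast markers and 10450 to 14010 CPM for skeletal muscle markers. The epidermis label therefore covers only part of the RNA in the controls. In knockouts, 11 of 12 basal markers fell at each stage, and the summed level of all 12 was 2276 to 2316 CPM at E15.5 and 1487 to 1516 CPM at E17.5. The other, Dst, which encodes a plakin also made outside epithelia, is named after its values were seen: it was not called at E15.5 (0.23) and rose at E17.5 (0.58). All 13 tested suprabasal markers and all 12 hair follicle markers fell at both stages. Markers of other cells were higher in knockouts: all 13 dermal fibroblast markers rose at E15.5 and 12 of 13 at E17.5, with all 10 endothelial and all 10 tested myeloid markers rising at both stages. In such bulk samples, fewer cells of a type and less RNA per cell cannot be told apart.

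Promoter sequence was available for 31 of the 39 genes in the RefSeq windows of GRCm38.p6, which span 250 bases before to 50 after each start. A p53 response element was searched for as 2 decamers of 10 bases separated by 0 to 13 bases, with up to 2 mismatches over the 20 bases and with the C and G of each decamer kept, a pattern that reads the same on both strands. Such an element was found for 8 of the 31 genes (25.8%), against 1272 of 27025 genes with a window (4.71%). By window, the share was 17.8% of 45 for the listed genes and 4.09% of all 32851. The genes were listed as p53 targets, so these contrasts are not independent of how the list was chosen. The sequences of elements from 5 of the 8 genes follow because these genes behaved in 4 different ways. Capitals mark the decamers and lower case the bases around them, 5' to 3' on the gene's strand. For Cdkn1a both of its matches are shown, which share the decamer GAACATGTCT, the first with a spacer of 12 bases and the second with adjoining decamers.
Cdkn1a, spaced: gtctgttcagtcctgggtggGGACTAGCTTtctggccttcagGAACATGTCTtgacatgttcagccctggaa
Cdkn1a, adjoining: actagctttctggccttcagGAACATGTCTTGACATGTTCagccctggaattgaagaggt
Ccng1: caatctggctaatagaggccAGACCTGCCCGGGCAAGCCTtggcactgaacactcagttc
Cd80: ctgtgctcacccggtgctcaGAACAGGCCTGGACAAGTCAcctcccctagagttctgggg
Ckap2: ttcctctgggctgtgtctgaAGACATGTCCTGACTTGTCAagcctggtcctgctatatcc
Rps27l: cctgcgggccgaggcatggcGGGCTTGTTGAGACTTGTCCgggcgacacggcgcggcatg
Positions count from the annotated start that the window was built on. The spaced Cdkn1a stretch lies at chr17:29090886-29090957 on the plus strand, with its element 73 to 42 bases before the start (-73 to -42) and 0 mismatches. The adjoining one lies at chr17:29090908-29090967 (-51 to -32, 1 mismatch). The Ccng1 stretch is at chr11:40755442-40755501 on the minus strand (element -195 to -176, 1 mismatch), and the Cd80 stretch at chr16:38458802-38458861 on the plus strand (-111 to -92, 2 mismatches). The Cd80 window was built on a start inside the gene's span, downstream of the first base of the gene, and so was the Rps27l window. The Ckap2 stretch is at chr8:22185983-22186042 on the minus strand (-203 to -184, 2 mismatches), and the Rps27l stretch at chr9:66946276-66946335 on the plus strand (-117 to -98, 1 mismatch). Bax, Sesn1 and Gtse1 also held an element in the window, and the Sesn1 and Gtse1 windows with an element too were built on starts inside the gene's span. Among these 8 genes, Ccng1 and Cd80 rose at both stages, Sesn1 rose at E17.5, Ckap2 fell at both, Rps27l fell at E17.5, and Cdkn1a, Bax and Gtse1 passed the test at neither. A match is a description of the letters, not evidence of binding in this tissue.

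**Figure D1:**
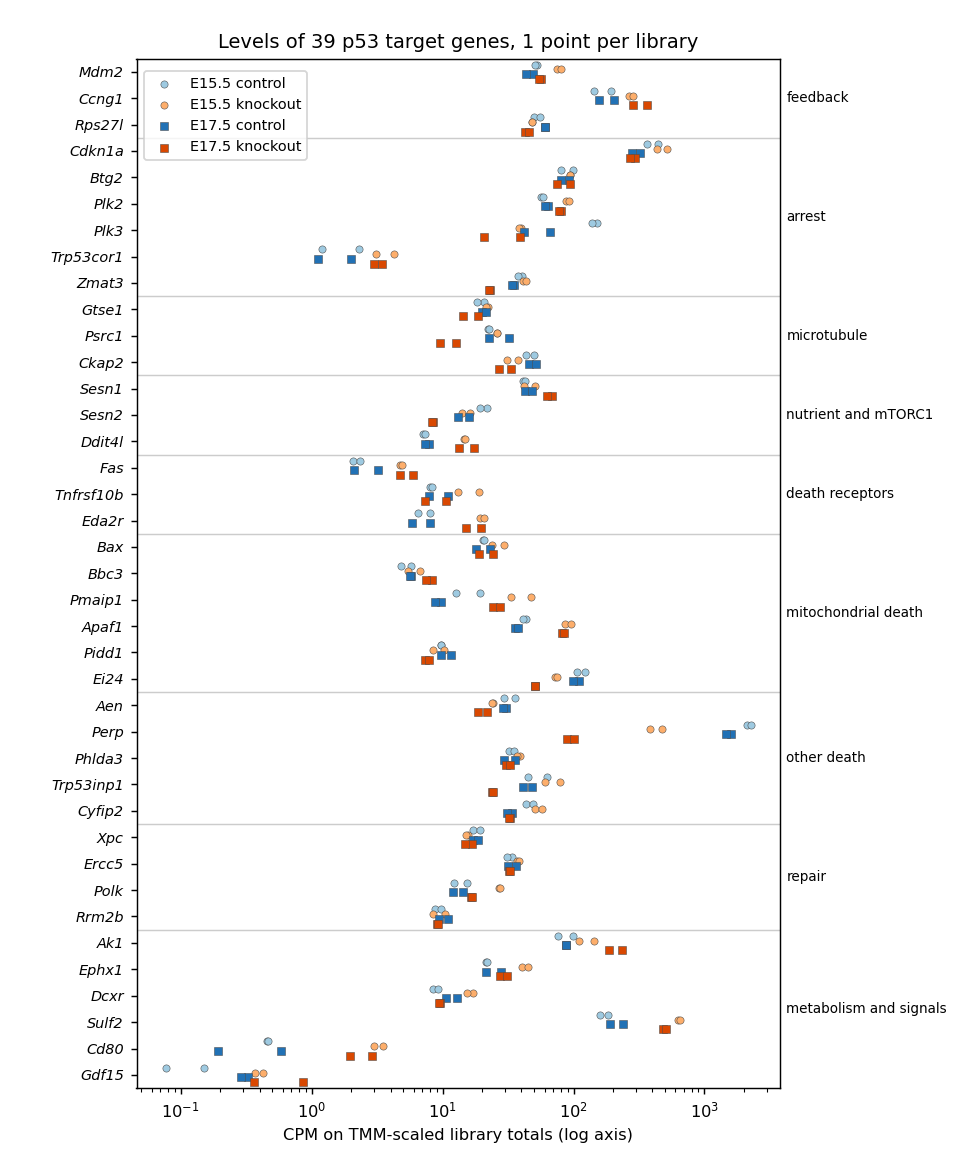
Level of each of the 39 genes (rows, grouped by role) in each of the 8 libraries, in CPM on TMM-scaled totals on a log axis; circles are E15.5, squares E17.5, blue controls and orange knockouts. Perp is the highest gene in the controls and moves furthest left in the knockouts, Sulf2 and Cd80 move right, and the 8 Cdkn1a points lie close together.

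The comparison of knockout with control at E15.5 asks what the deletion of Noc2l in these cells did at the earlier stage. There 16 of 39 genes rose (41%), where 23.2% of all 16342 genes tested did so. Over the same comparison 6 genes fell (15.4%), against 22.3% of all genes. The median log2 fold change was 0.24 over the 39 genes and -0.01 over all genes. At E17.5, 13 rose (33.3%) and 11 fell (28.2%), against 26.7% of all genes in each direction, and the medians were -0.04 and -0.02. The shares at E17.5 were near those of the whole transcriptome. With upper-quartile scaling the E15.5 split was 20 risen and 3 fallen in the list and 4409 risen and 2965 fallen over all genes. With library totals alone the E17.5 split was 10 risen and 14 fallen in the list and 3295 risen and 6284 fallen over all genes. That second scaling shifted the median of all genes at E17.5 to -0.24.

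By stage, 12 genes rose in both comparisons and 6 fell in both. The matching shares of all genes were not computed, so these counts do not show whether the list differed from the rest. Those that rose in both were Mdm2, Ccng1, Plk2, Trp53cor1, Ddit4l, Fas, Eda2r, Pmaip1, Apaf1, Ak1, Sulf2 and Cd80. Those that fell in both were Plk3, Ckap2, Sesn2, Ei24, Aen and Perp. Passing the test as risen at E15.5 and not at E17.5 were Tnfrsf10b, Polk, Ephx1 and Dcxr, and the reverse held for Sesn1. Rps27l, Zmat3, Psrc1, Pidd1 and Trp53inp1 passed as fallen at E17.5 alone, and 11 genes passed at neither stage. No gene rose at 1 stage and fell at the other.

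**Figure D2:**
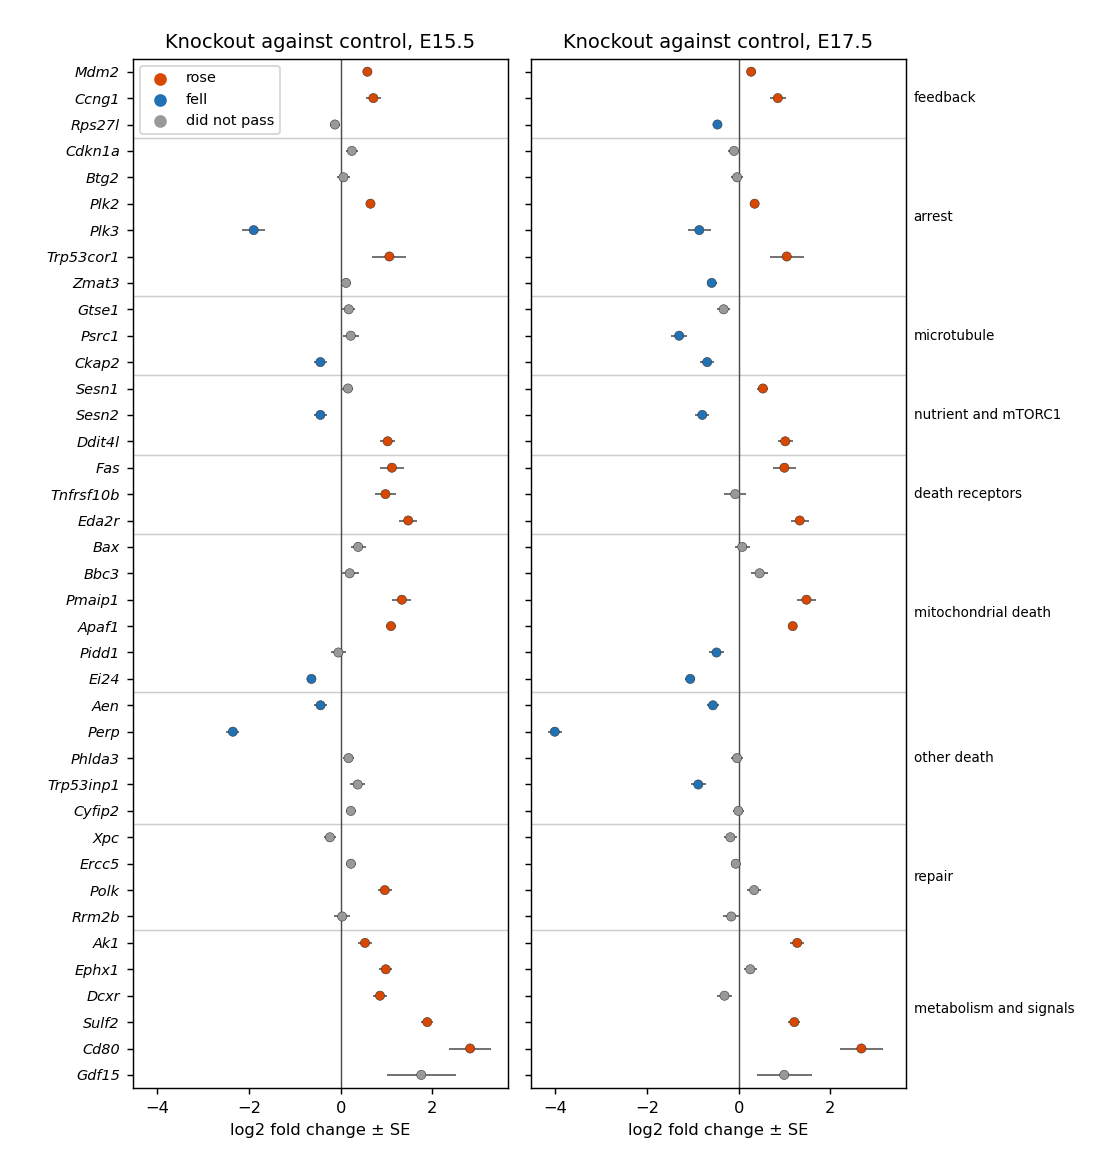
Log2 fold change of knockout against control for each of the 39 genes at E15.5 (left) and E17.5 (right), with bars of 1 SE; orange points rose and blue points fell at an adjusted p under 0.05, and grey points did not pass. The 3 genes grouped as death receptors sit to the right at E15.5, and Perp reaches -2.35 at E15.5 and -4.01 at E17.5.

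The feedback genes rose, with 1 exception. Mdm2, the ubiquitin ligase gene that restrains p53 (chromosome 10, 117688875 to 117710758, GRCm38), had 52.1 and 50.9 CPM in the E15.5 controls, 74.6 and 79.5 in the E15.5 knockouts, 48.8 and 43.5 in the E17.5 controls, and 56.6 and 54.7 in the E17.5 knockouts. Both knockout libraries were above both controls at each stage, with a narrower gap at E17.5. It rose by 0.58 ± 0.10 at E15.5 (adjusted p = 0.00066) and by 0.27 ± 0.10 at E17.5 (adjusted p = 0.04). Ccng1, which encodes cyclin G1, a partner of the phosphatase that acts on Mdm2 (chromosome 11, 40748552 to 40755309), had 192 and 144 CPM in the E15.5 controls and 264 and 286 in the knockouts, then 204 and 156 in the E17.5 controls and 366 and 285 in the knockouts. Its groups did not overlap at either stage, and it rose by 0.71 ± 0.17 (adjusted p = 0.0054) and 0.85 ± 0.17 (adjusted p = 0.0014). Rps27l, a ribosomal protein gene related to Rps27 that takes part in Mdm2 regulation, was not called at E15.5 (-0.13) and fell at E17.5 (-0.46 ± 0.10, adjusted p = 0.0024). The E17.5 call for Mdm2 did not hold without any single library except E17.5 control replicate 1 (0.19 to 0.28, adjusted p 0.054 to 0.215 without the others), with DESeq2 (adjusted p = 0.056), with no filter on low counts (adjusted p = 0.086) or with only the compared groups fitted (adjusted p = 0.066), and its value was 0.06 on library totals. The E15.5 call for Ccng1 was lost without control replicate 2 (0.52, adjusted p = 0.066).

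Genes of cell cycle arrest split. Cdkn1a, the gene of the p21 inhibitor of cyclin-dependent kinases (chromosome 17, 29090979 to 29100722), had 364 and 442 CPM in the E15.5 controls, 437 and 517 in the E15.5 knockouts, 323 and 280 in the E17.5 controls, and 294 and 268 in the E17.5 knockouts. Control and knockout libraries overlapped at both stages. The log2 fold changes were 0.24 ± 0.14 (adjusted p = 0.17) and -0.10 ± 0.14 (adjusted p = 0.55). Per kilobase of transcript it had the second highest level of the list in the E15.5 controls, 211 CPM per kb, after Perp. Trp53cor1, the long noncoding RNA next to Cdkn1a known as lincRNA-p21, was low, with 1.21 and 2.30 CPM in the E15.5 controls, 3.07 and 4.26 in the knockouts, 1.99 and 1.12 in the E17.5 controls and 2.99 and 3.41 in the knockouts. It lay above the controls at both stages and rose by 1.06 ± 0.37 (adjusted p = 0.036) and 1.05 ± 0.37 (adjusted p = 0.034). It matches an annotated noncoding transcript of the opposite strand at 99.8% identity over 1333 bases, and without a stated strand setting reads of the pair cannot be told apart. At E15.5 it did not pass without control replicate 1 (0.67) or knockout replicate 2 (0.81), and at E17.5 without control replicate 2 (0.68), knockout replicate 1 (1.11) or knockout replicate 2 (0.93). Without E15.5 control replicate 2 its E15.5 value was 1.60.

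The polo-like kinase genes went opposite ways. Plk2, a stress-induced kinase of the centrosome cycle, had 56.3 and 58.4 CPM in the E15.5 controls and 87.4 and 92.6 in the knockouts, then 63.3 and 60.5 in the E17.5 controls and 79.8 and 77.7 in the knockouts. It was higher in every knockout library, and rose by 0.65 ± 0.09 (adjusted p = 0.00017) and 0.35 ± 0.09 (adjusted p = 0.0079). Plk3, its stress-response relative, had 150 and 139 CPM in the E15.5 controls against 39.8 and 38 in the knockouts, and 66.7 and 41.7 in the E17.5 controls against 20.7 and 38.9 in the knockouts. The E15.5 groups stood far apart, whereas at E17.5 the lower control and the higher knockout nearly met. Plk3 fell by 1.90 ± 0.26 on the log2 scale at E15.5 (adjusted p = 0.00011) and by 0.86 ± 0.26 at E17.5 (adjusted p = 0.014). The E17.5 call for Plk3 was lost without control replicate 1 (-0.49) or knockout replicate 1 (-0.50), where it was -1.41 without knockout replicate 2, and with DESeq2 (-0.86, adjusted p = 0.056). For Plk2 it was lost without E17.5 knockout replicate 1 (0.31, adjusted p = 0.073) and on library totals (0.14).

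Zmat3, which encodes an RNA-binding zinc finger protein, had 40.4 and 37.6 CPM in the E15.5 controls, 41.3 and 43.3 in the E15.5 knockouts, 35.2 and 33.6 in the E17.5 controls, and 23.0 and 22.7 in the E17.5 knockouts. The 2 lowest of the 8 values were the E17.5 knockouts. It fell at E17.5 (-0.59 ± 0.11, adjusted p = 0.00068) and not at E15.5 (0.12 ± 0.10, adjusted p = 0.39). Btg2, an antiproliferative gene, stayed between 75.1 and 99.2 CPM in all libraries, with overlapping groups and fold changes of 0.06 and -0.04.

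Of the 3 genes whose proteins bind microtubules or the spindle, none rose. Psrc1 (chromosome 3, 108383804 to 108388231) had 22.2 and 22.7 CPM in the E15.5 controls, 26.2 and 26.1 in the E15.5 knockouts, 22.6 and 32.2 in the E17.5 controls, and 9.6 and 12.7 in the E17.5 knockouts. The knockouts were the higher pair at E15.5 and the lower at E17.5. It did not pass at E15.5 (0.22 ± 0.18, adjusted p = 0.33) and fell at E17.5 (-1.30 ± 0.18, adjusted p = 0.0001). Ckap2, a spindle protein gene, had 43.4 and 50 CPM in the E15.5 controls, 30.8 and 38 in the E15.5 knockouts, 45.3 and 51.9 in the E17.5 controls, and 27.1 and 33.3 in the E17.5 knockouts. Every knockout was below every control, and Ckap2 fell by 0.44 ± 0.15 (adjusted p = 0.027) and by 0.69 ± 0.15 (adjusted p = 0.002). Gtse1, a microtubule-binding gene active in G2 and S phase, gave 0.18 at E15.5 and -0.33 at E17.5 and passed at neither. It was called as fallen at E17.5 on library totals (-0.54, adjusted p = 0.0099) and without knockout replicate 2 (-0.54, adjusted p = 0.022). Beside them, 24 mitotic genes that are not on the list had 6 fallen and 0 risen at E15.5 (median -0.25) and all 24 fallen at E17.5 (median -0.69), with Ccnb1 (cyclin B1) at -0.76 ± 0.12 and -1.14 ± 0.12. Over all genes tested, 22.3% fell at E15.5 and 26.7% at E17.5. The part of the mitotic shift in the values of Psrc1 and Ckap2 was not tested. The E15.5 call for Ckap2 was lost without control replicate 2 (-0.34), without knockout replicate 1 (-0.30) and with upper-quartile scaling (-0.35).

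The genes that act on nutrient signalling and mTORC1 also diverged. Ddit4l, an inhibitor of mTORC1 signalling, had 7.10 and 7.34 CPM in the E15.5 controls and 14.5 and 14.8 in the knockouts, and 7.83 and 7.35 in the E17.5 controls and 17.3 and 13.3 in the knockouts. It was close to 2-fold higher in knockouts at both stages (1.02 ± 0.17, adjusted p = 0.00041; 1.01 ± 0.16, adjusted p = 0.00031). Sesn1 and Sesn2 encode sestrins, which restrain mTORC1 when amino acids are low. Sesn1 had 41.1 and 42.3 CPM in the E15.5 controls, 51 and 42.1 in the E15.5 knockouts, 42.9 and 47.8 in the E17.5 controls, and 68.4 and 62.3 in the E17.5 knockouts. Only its E17.5 groups separated, and it rose there (0.53 ± 0.12, adjusted p = 0.003) but not at E15.5 (0.16 ± 0.12, adjusted p = 0.31). Sesn2 had 22 and 19.3 CPM in the E15.5 controls, 14.2 and 16.2 in the E15.5 knockouts, 15.9 and 13.2 in the E17.5 controls, and 8.51 and 8.23 in the E17.5 knockouts. Knockouts were below their stage's controls, and Sesn2 fell at E15.5 (-0.44 ± 0.15, adjusted p = 0.029) and at E17.5 (-0.80 ± 0.15, adjusted p = 0.0011). Its E15.5 call was lost without control replicate 1 (-0.35), without knockout replicate 1 (-0.36) and with upper-quartile scaling (-0.35).

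All 3 genes grouped here as death receptors rose at E15.5 and 2 did so at E17.5. Fas, the receptor gene for Fas ligand, had 2.08 and 2.34 CPM in the E15.5 controls and 4.70 and 4.89 in the knockouts, and 2.10 and 3.21 in the E17.5 controls and 4.71 and 5.93 in the knockouts. Knockouts exceeded controls at both stages, by 1.12 ± 0.27 (adjusted p = 0.0053) and 1.0 ± 0.26 (adjusted p = 0.0071). Eda2r, the receptor gene for the A2 form of ectodysplasin (chromosome X, 97333837 to 97377234), had 6.45 and 7.95 CPM in the E15.5 controls, 19.2 and 20.8 in the E15.5 knockouts, 8.01 and 5.81 in the E17.5 controls, and 19.7 and 15 in the E17.5 knockouts. The lowest knockout value was close to double the highest control value, and the rise was 1.47 ± 0.20 (adjusted p = 0.00011) and 1.33 ± 0.20 (adjusted p = 0.00017). Tnfrsf10b, the TRAIL receptor gene, had 8.04 and 8.30 CPM in the E15.5 controls, 19.1 and 13.1 in the E15.5 knockouts, 7.83 and 11 in the E17.5 controls, and 7.38 and 10.5 in the E17.5 knockouts. Its E17.5 groups overlapped, and it rose at E15.5 (0.98 ± 0.24, adjusted p = 0.0058) but gave -0.08 ± 0.24 at E17.5. An annotated pseudogene matches its transcript at 97.5% identity over 405 bases, so its counts are uncertain. Tnfrsf10b did not pass at E15.5 without knockout replicate 1 (0.68), nor Fas at E17.5 without control replicate 1 (0.73) or knockout replicate 2 (0.80).

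Genes of the mitochondrial death route included risers, fallers and the 2 best known targets, Bax and Bbc3, that passed at neither stage. Pmaip1, which encodes the BH3-only protein Noxa, had 12.6 and 19.4 CPM in the E15.5 controls, 33.5 and 47.2 in the E15.5 knockouts, 9.79 and 8.76 in the E17.5 controls, and 24.2 and 27.4 in the E17.5 knockouts. Its groups were well apart at both stages, with rises of 1.33 ± 0.21 (adjusted p = 0.00031) and 1.48 ± 0.21 (adjusted p = 0.00014). Apaf1, the core of the apoptosome (chromosome 10, 90989311 to 91082743), had 43.3 and 41.4 CPM in the E15.5 controls and 85.4 and 95.8 in the knockouts, and 35.4 and 37.9 in the E17.5 controls and 81.1 and 84.9 in the knockouts. It was a little over 2 times as high at both stages with little spread (1.10 ± 0.10, adjusted p = 6.9e-06; 1.18 ± 0.10, adjusted p = 2.7e-06). Bax, the pore-forming effector gene, had 20.3 and 20.7 CPM in the E15.5 controls, 23.9 and 29.4 in the E15.5 knockouts, 17.9 and 23.0 in the E17.5 controls, and 18.9 and 24.3 in the E17.5 knockouts. Bax values overlapped at E17.5, and its fold changes were 0.38 ± 0.17 (adjusted p = 0.083) and 0.08 ± 0.17 (adjusted p = 0.72). Bbc3, which encodes the BH3-only protein Puma, had 5.70 and 4.84 CPM in the E15.5 controls, 6.66 and 5.42 in the E15.5 knockouts, 5.76 and 5.65 in the E17.5 controls, and 8.25 and 7.40 in the E17.5 knockouts. Only at E17.5 did its knockouts clear its controls, with 0.20 ± 0.20 (adjusted p = 0.45) and 0.46 ± 0.19 (adjusted p = 0.066). Bax passed at E15.5 with upper-quartile scaling (0.47, adjusted p = 0.041) and with the fit restricted to the groups compared (0.38, adjusted p = 0.041), and Bbc3 passed at E17.5 with upper-quartile scaling (0.50, adjusted p = 0.049).

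Ei24, a gene of an endoplasmic reticulum protein linked to autophagy, had 107 and 122 CPM in the E15.5 controls, 72.4 and 74.4 in the E15.5 knockouts, 111 and 99.9 in the E17.5 controls, and 50.4 and 50.9 in the E17.5 knockouts. Knockouts were far below controls, and Ei24 fell by 0.64 ± 0.10 (adjusted p = 0.00036) and by 1.06 ± 0.10 (adjusted p = 6.6e-06). Pidd1, the scaffold gene of the caspase-2 platform, was not called at E15.5 (-0.05) and fell at E17.5 (-0.48 ± 0.17, adjusted p = 0.033). That Pidd1 call was lost without E17.5 control replicate 2 (-0.34), knockout replicate 1 (-0.46) or knockout replicate 2 (-0.55), with DESeq2 (adjusted p = 0.053) and with upper-quartile scaling (adjusted p = 0.051).

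Perp had the highest level of the list in the controls, but Sulf2 was higher in the knockouts. At E17.5 Perp had the largest change of the list, while at E15.5 Cd80 changed more. Perp encodes a desmosome-associated membrane protein of stratified epithelia that is a target of both p53 and p63 (chromosome 10, 18845071 to 18857073). Perp had 2094 and 2256 CPM in the E15.5 controls, 382 and 471 in the E15.5 knockouts, 1593 and 1458 in the E17.5 controls, and 88.7 and 101 in the E17.5 knockouts. The 4 control values were all over 3 times the highest knockout value. It fell by 2.35 ± 0.14 at E15.5 (adjusted p = 2.7e-07) and by 4.01 ± 0.16 at E17.5 (adjusted p = 5.2e-09). Per kilobase, its level went from 1110 to 218 CPM per kb at E15.5 and from 781 to 48.5 at E17.5. The medians of basal keratinocyte markers were -2.24 and -3.09 and of suprabasal markers -2.17 and -3.60 in the same comparisons. Trp63, which encodes p63, fell at both stages and went from 235 and 198 CPM to 12.1 and 9.52 CPM at E17.5 (-4.33 ± 0.17). The part of the lower keratinocyte markers in the Perp value was not tested.

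Among the other death genes, Aen, a p53-induced nuclease gene, had 35.9 and 29.5 CPM in the E15.5 controls, 24.2 and 24.0 in the E15.5 knockouts, 30.7 and 28.8 in the E17.5 controls, and 18.5 and 21.7 in the E17.5 knockouts. Knockouts were below controls at both stages, with log2 fold changes of -0.44 ± 0.13 (adjusted p = 0.019) and -0.56 ± 0.13 (adjusted p = 0.0041). Trp53inp1, a stress and autophagy gene, had 45.2 and 62.9 CPM in the E15.5 controls, 61.0 and 78.8 in the E15.5 knockouts, 47.8 and 41.1 in the E17.5 controls, and 24.0 and 24.2 in the E17.5 knockouts. The E15.5 groups overlapped and the E17.5 groups stood apart. Its fold change was 0.37 ± 0.16 at E15.5 (adjusted p = 0.087), and it fell at E17.5 (-0.88 ± 0.17, adjusted p = 0.001). Phlda3, an Akt antagonist gene, and Cyfip2, a gene of an actin-regulatory complex, passed at neither stage, with fold changes of 0.17 and -0.04 for Phlda3 and 0.22 and -0.01 for Cyfip2. The E15.5 call for Aen was lost without control replicate 1 (-0.29), knockout replicate 1 (-0.45) or knockout replicate 2 (-0.44). For Trp53inp1 a rise at E15.5 was called without control replicate 2 (0.63, adjusted p = 0.02), without knockout replicate 1 (0.54, adjusted p = 0.039) and with upper-quartile scaling (0.46, adjusted p = 0.036).

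**Figure D3:**
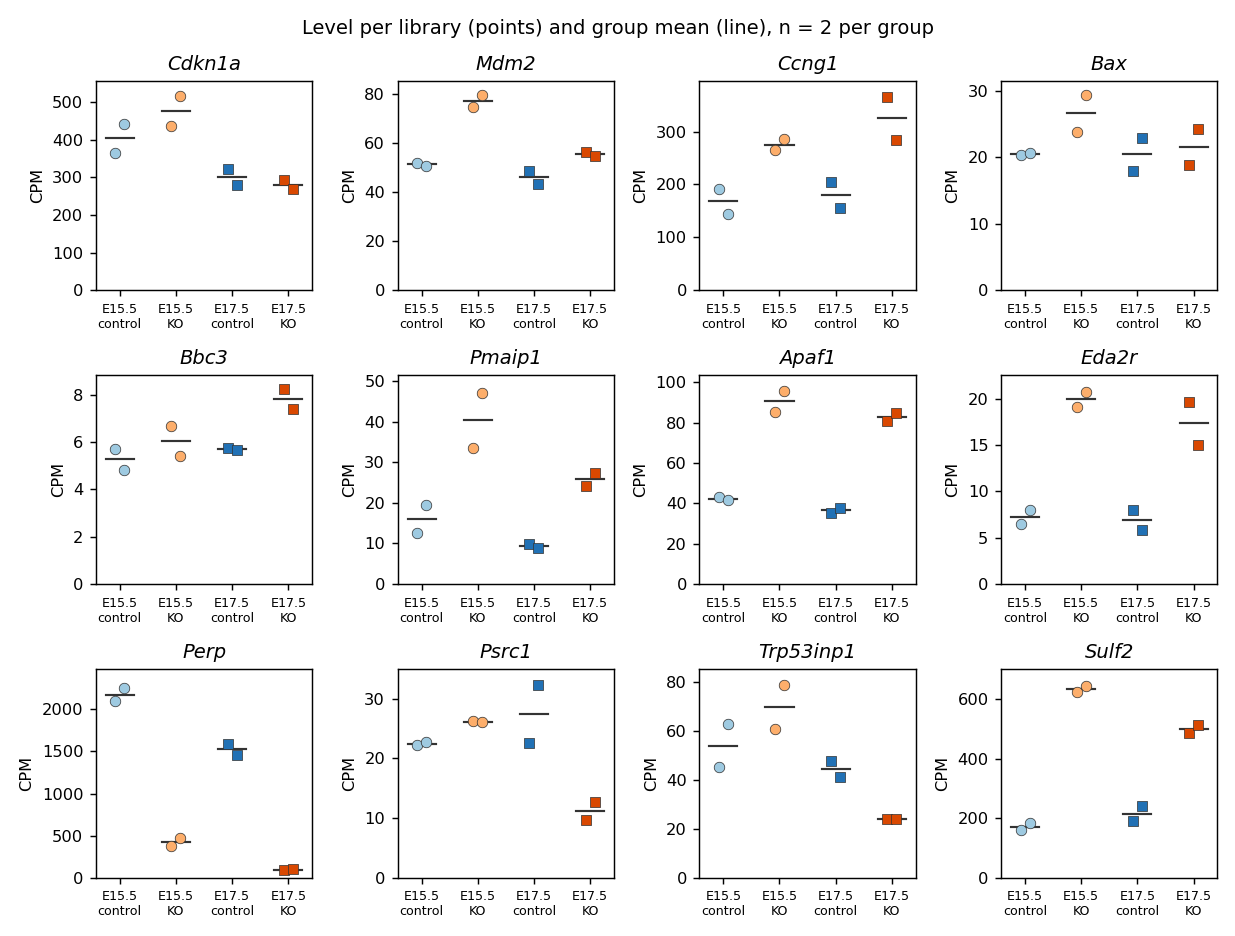
CPM of 12 of the genes in each library (points) with the mean of the 2 libraries (line) for the 4 groups, on linear axes from 0; circles are E15.5 and squares E17.5. Cdkn1a overlaps between control and knockout, Apaf1 and Eda2r are separated at both stages, and Psrc1 and Trp53inp1 have their lowest values in the E17.5 knockouts.

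Of the 4 DNA repair genes, Polk alone passed, and at E15.5 only. Polk, a translesion DNA polymerase gene, had 12.19 and 15.48 CPM in the E15.5 controls, 26.7 and 27.2 in the E15.5 knockouts, 12 and 14.3 in the E17.5 controls, and 16.4 and 16.9 in the E17.5 knockouts. Its knockouts were above its controls at both stages, by 0.96 ± 0.15 (adjusted p = 0.00029) and 0.34 ± 0.15 (adjusted p = 0.077). Xpc and Ercc5, genes of nucleotide excision repair, and Rrm2b, a ribonucleotide reductase subunit gene, ran from -0.24 to 0.22 in log2 fold change over both stages. A pseudogene with 96.1% identity over 1051 bases makes the Rrm2b counts uncertain. Ercc5 passed as risen at E15.5 with upper-quartile scaling (0.32, adjusted p = 0.036), and Xpc as fallen at E17.5 on library totals (-0.40, adjusted p = 0.03).

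Among the genes of metabolism and signals between cells, Cd80 and Sulf2 had the largest rises of the list at E15.5. At E17.5 Cd80 again rose most, but Pmaip1 (1.48) and Eda2r (1.33) rose more than Ak1 and Sulf2. Sulf2, which encodes an extracellular heparan sulfate sulfatase (chromosome 2, 166073899 to 166155683), had 160 and 182 CPM in the E15.5 controls, 623 and 645 in the E15.5 knockouts, 190 and 240 in the E17.5 controls, and 486 and 512 in the E17.5 knockouts. All knockouts were over 2 times the highest control, and Sulf2 rose 3.70-fold (1.89 ± 0.13, adjusted p = 8.4e-07) and 2.32-fold (1.21 ± 0.13, adjusted p = 1.4e-05). Cd80, a costimulatory ligand gene of antigen-presenting cells (chromosome 16, 38457430 to 38495958), had 0.453 and 0.461 CPM in the E15.5 controls, 3.0 and 3.52 in the E15.5 knockouts, 0.580 and 0.193 in the E17.5 controls, and 1.97 and 2.91 in the E17.5 knockouts. The control values rest on 6 to 16 counts per library and the knockout values on 54 to 100. It rose by 2.82 ± 0.46 (adjusted p = 0.00041) and 2.67 ± 0.47 (adjusted p = 0.00054). Myeloid markers summed to 340 to 364 CPM in the controls, 746.3 to 749.2 in the E15.5 knockouts and 1208 to 1345 in the E17.5 knockouts, and their part in the Cd80 value was not tested.

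Ak1, the cytosolic adenylate kinase gene, had 99.1 and 76.1 CPM in the E15.5 controls, 142 and 111 in the E15.5 knockouts, 87.0 and 87.0 in the E17.5 controls, and 234 and 187 in the E17.5 knockouts. The gap was wider at E17.5, with rises of 0.53 ± 0.16 (adjusted p = 0.017) and 1.28 ± 0.16 (adjusted p = 4.2e-05). Ephx1, the microsomal epoxide hydrolase gene, had 21.4 and 21.7 CPM in the E15.5 controls, 40.6 and 44.6 in the E15.5 knockouts, 21.5 and 27.9 in the E17.5 controls, and 27.6 and 31.3 in the E17.5 knockouts. It rose where its groups were apart, at E15.5 (0.98 ± 0.14, adjusted p = 0.00017), and gave 0.25 ± 0.14 at E17.5 (adjusted p = 0.15). Dcxr, a sugar reductase gene, had 8.49 and 9.29 CPM in the E15.5 controls, 16.9 and 15.3 in the E15.5 knockouts, 10.6 and 12.8 in the E17.5 controls, and 9.49 and 9.42 in the E17.5 knockouts. Dcxr knockouts were the higher pair at E15.5 (0.86 ± 0.16, adjusted p = 0.00088) and the lower pair at E17.5 (-0.31 ± 0.16, adjusted p = 0.11). Gdf15, a stress-induced secreted factor gene, was nearly silent, with 2 to 24 counts per library, and passed at neither stage (1.76 ± 0.76 and 0.99 ± 0.60, the latter 0.23 without E17.5 knockout replicate 2). The E15.5 call for Ak1 was lost without control replicate 2 (0.35) or knockout replicate 1 (0.33). At E17.5 Ephx1 was called as risen without control replicate 2 (0.45, adjusted p = 0.025), and Dcxr as fallen on library totals (-0.52, adjusted p = 0.014).

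The next comparison asked whether the knockout effect differed between the stages, as the effect at E17.5 minus that at E15.5. The effect was lower at E17.5 for 5 of the 39 genes (12.8%), where 2.47% of all genes were called lower, and it was higher for 0, where 1.88% of all genes were called higher. At an unadjusted p under 0.05, 13 of the 39 were lower and 2 higher (33.3% and 5.13%, against 7.95% and 9.94% of all genes). DESeq2 called 7 as lower, Ephx1 (-0.72, adjusted p = 0.032) and Sulf2 (-0.66, adjusted p = 0.0074) among them, and 1 as higher, Ak1 (0.76, adjusted p = 0.022). By limma-voom 5 were lower and 0 higher. Over all genes, DESeq2 called 497 lower and 509 higher, and limma-voom 334 lower and 272 higher. The median difference was -0.29 over the 39 genes and 0.01 over all genes. The largest was that of Perp (-1.66 ± 0.20, adjusted p = 0.00064), whose decrease was greater at the later stage. Psrc1 (-1.52 ± 0.25, adjusted p = 0.0059), Trp53inp1 (-1.25 ± 0.24, adjusted p = 0.012), Dcxr (-1.17 ± 0.22, adjusted p = 0.012) and Zmat3 (-0.71 ± 0.15, adjusted p = 0.021) had positive fold changes at E15.5 and negative ones at E17.5. On library totals alone, 10 genes of the list were lower and 0 higher, with 655 lower and 142 higher over all genes. The Zmat3 difference did not pass without E15.5 control replicate 1 (-0.76) or 2 (-0.66), E15.5 knockout replicate 2 (-0.69), or E17.5 knockout replicate 1 (-0.73) or 2 (-0.71), and the Dcxr difference without E15.5 control replicate 1 (-1.11). A higher effect at E17.5 was called for Plk3 without E17.5 knockout replicate 1 (1.40), and lower ones for Ephx1 (-0.91) and Sulf2 (-0.83) without E17.5 control replicate 1.

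The control libraries alone were compared for the change from E15.5 to E17.5 that occurs with normal development. Of the 39 genes, 5 fell (12.8%, against 7.7% of all genes) and 0 rose (against 3.15%), with 6 lower and 2 higher at an unadjusted p under 0.05 (15.4% and 5.13%, against 14.2% and 8.69% of all genes). DESeq2 called 6 lower and 0 higher, and limma-voom 4 lower and 0 higher. The counts over all genes in those fits are not given here, so they do not show whether the list differed from the rest. The medians were -0.01 over the 39 genes and -0.01 over all. Plk3 fell most (-1.42 ± 0.25, adjusted p = 0.0042), from 150 and 139 CPM to 66.7 and 41.7, and its knockout libraries were below the E17.5 control values at both stages. Pmaip1 (-0.79 ± 0.22, adjusted p = 0.038), Cyfip2 (-0.52 ± 0.11, adjusted p = 0.014), Perp (-0.51 ± 0.14, adjusted p = 0.035) and Sesn2 (-0.51 ± 0.15, adjusted p = 0.0497) also fell. Cdkn1a gave -0.42 ± 0.14 and missed the threshold (adjusted p = 0.076), and it passed with DESeq2 (adjusted p = 0.021). On library totals alone the split was 3 risen and 1 fallen. The Plk3 call held without any single library. The others did not: Pmaip1 was lost without E15.5 control replicate 2 (-0.45), E17.5 control replicate 1 (-0.87) or 2 (-0.71), Cyfip2 without E15.5 control replicate 2 (-0.42) or E17.5 control replicate 2 (-0.45), Perp without any 1 of the 4 (-0.58 to -0.45), and Sesn2 without any single library except E17.5 control replicate 1 (-0.60 to -0.38). The E17.5 knockout comparison and this one share the E17.5 controls, and the E15.5 comparison shares the E15.5 controls.

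The rest of the p53 pathway was examined through 3 further sets of genes. Trp53, the p53 gene itself, had 111 and 115 CPM in the E15.5 controls, 81.3 and 72.2 in the E15.5 knockouts, 116 and 115 in the E17.5 controls, and 80.3 and 89.3 in the E17.5 knockouts. Every knockout was below every control, and Trp53 fell at both stages, by 0.44 ± 0.10 at E17.5 (adjusted p = 0.0028). All 3 genes of the p53 family, Trp53, Trp63 and Trp73, fell at E15.5 too, with log2 fold changes from -4.53 to -0.56. Trp73, which encodes p73, was at 0.329 and 0.503 CPM in the E17.5 knockouts against 26.9 and 29.3 in the controls (-6.06 ± 0.23). Of 30 regulators of p53, 2 rose and 14 fell at E15.5 (median -0.24), and 1 rose and 16 fell at E17.5 (median -0.41). The smallest adjusted p among them at E15.5 belonged to Ppp1r13b (ASPP1, a p53 cofactor gene; -0.99 ± 0.11, adjusted p = 2.6e-05), Usp7 (a deubiquitinase gene; -0.73 ± 0.11) and Hdac1 (a histone deacetylase gene; -0.72 ± 0.13), and at E17.5 to Hdac1 (-0.96 ± 0.13), Ppm1d (a phosphatase gene that is itself a p53 target; -1.0 ± 0.14) and Ppp1r13b (-0.69 ± 0.11). Of 29 tested p53 targets outside the list of 39, 13 rose and 6 fell at E15.5 (median 0.41) and 12 rose and 7 fell at E17.5 (median 0.22). Beside both lists, 23.2% of all genes tested rose and 22.3% fell at E15.5, and 26.7% went each way at E17.5. Sfn, the epithelial 14-3-3 sigma gene, fell at both stages (-2.28 ± 0.12 and -3.26 ± 0.13), Tob1, an antiproliferative gene, fell at E15.5 (-1.04 ± 0.12), and Cpt1c (1.51 ± 0.13 at E15.5), Csf1, a myeloid growth factor gene (1.36 ± 0.13 at E17.5), and Thbs1, the thrombospondin 1 gene (1.58 ± 0.16 at E17.5), rose.

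**Figure D4:**
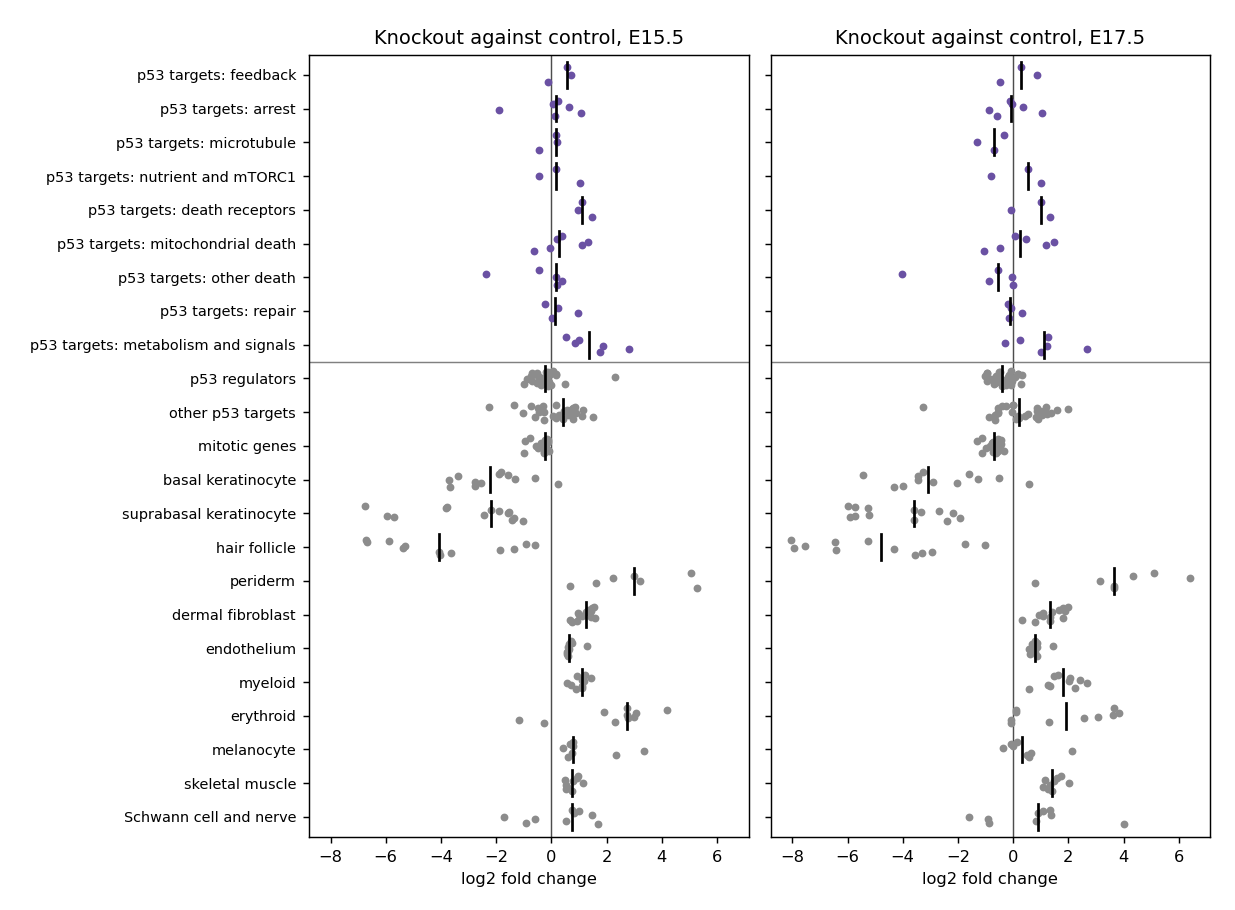
Log2 fold change of knockout against control at E15.5 (left) and E17.5 (right) for the 39 genes by role (purple), and for other p53 pathway lists and cell type marker lists (grey), 1 point per gene with the median as a black bar. Genes grouped as death receptors have medians of 1.12 and 1.0, dermal fibroblast markers 1.25 and 1.32, and suprabasal keratinocyte markers -2.17 and -3.60.

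The sizes of the rises among the 39 genes can be set beside those of markers of other cell types. At E15.5 the 13 fibroblast markers rose by 0.69 to 1.56, and 11 of the 16 risen genes (68.8%) lay in that range, as did 49.6% of all risen genes. Sulf2 and Cd80 were above the range, and Ak1, Mdm2 and Plk2 below it. The range of the 10 tested myeloid markers, 0.57 to 1.44, held 12 of the 16 (75%, against 58.3% of all risen genes), with Cd80, Eda2r and Sulf2 above it. That of the 10 endothelial markers, 0.56 to 1.28, held 11 of the 16 (68.8%, against 53.6%). At E17.5 the fibroblast markers ran from 0.32 to 2.00, and 11 of the 13 risen genes (84.6%) lay inside, against 84.2% of all risen genes, with Cd80 above and Mdm2 below. The lower end of that range is Twist2, which did not pass there (adjusted p = 0.12). The endothelial range at E17.5, 0.57 to 1.44, held 8 of the 13 (61.5%, against 50.8%), with Cd80 and Pmaip1 above it and Mdm2, Plk2 and Sesn1 below. The myeloid range, 0.58 to 2.68, held 10 of the 13 (76.9%, against 71.2%), with the same 3 genes below it. Summed fibroblast markers rose from 35800 to 37790 CPM in the E15.5 controls to 85580 to 105400 in the knockouts, and from 31550 to 36280 to 108500 to 114400 at E17.5. No fibroblast, endothelial or tested myeloid marker was at 0 counts in any library. Other lists also moved: 7 of 10 erythroid markers rose at E15.5 and 5 of 10 at E17.5, skeletal muscle markers 7 and 9 of 9, melanocyte markers 7 and 3 of 8, and periderm markers 6 and 7 of 7 tested. Schwann cell and nerve markers were mixed, with 3 risen and 3 fallen of 9 at E15.5 and 6 and 3 at E17.5, as were T cell markers, with 2 risen and 1 fallen of 5 tested at E15.5 and 1 and 2 at E17.5. The part of these cells in the values of the 39 genes was not tested.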

How the data were processed

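Total RNA from 8 epidermis libraries was sequenced on Illumina instruments. Per the series design text and the submitters' processing notes, the authors aligned reads to mm10 with TopHat version 2, counted them with HOMER and used edgeR; no source used here gives the strand setting or the versions of HOMER and edgeR. The deposited values used here are raw read counts per RefSeq transcript, 1 file per library.

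Of 30521 transcripts, 29908 were named from a RefSeq table and 182 from GENCODE; the 431 without a name held 1.43% to 2.68% of counts and were left out. For each gene the transcript with the largest total was kept. Genes passing filterByExpr were tested in R 4.3.3 with the quasi-likelihood test of edgeR 4.0.16 on TMM-scaled counts, with 1 mean per group over all 8 libraries and Benjamini-Hochberg adjustment over all 16342 genes; every adjusted p is from this test unless another is named, and "rose" and "fell" mean an adjusted p under 0.05. Errors of log2 fold changes are SEs from the fit, with n = 2 libraries per group. Alternatives were other scalings, DESeq2 1.42.0, limma-voom (limma 3.58.1), other filters, sums over transcripts, a replicate block, the compared groups alone, and each library left out.

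The 39 genes, the other lists and the rule for the genes described in full were chosen with earlier results of these data known. Library values are given for Cdkn1a, Mdm2, Ccng1, Bax, Bbc3, Pmaip1 and Perp and for genes called in a knockout comparison with an absolute log2 fold change of at least 0.5; of the other pathway lists, the 3 with the smallest adjusted p are named. Across genes, Pearson's r between the 2 libraries of a group was 0.986 to 0.989, and their counts differed beyond sampling noise (chi-square of 15.6 to 33.8 per gene). At this depth CPM values under 1 rest on few counts, as stated for Cd80 and Gdf15.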

Additional observations from a re-analysis of the deposited data

Results flagged for a closer look

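In 5 of the 39 genes the knockout effect differed between the stages by the test of the difference itself (edgeR's quasi-likelihood test, Benjamini-Hochberg adjusted p under 0.05). On the log2 scale, the effect at E17.5 minus the effect at E15.5 was -1.66 for Perp, -1.52 for Psrc1, -1.25 for Trp53inp1, -1.17 for Dcxr and -0.71 for Zmat3. In Perp both effects were negative. In the other 4 genes the group means were higher in knockouts at E15.5 and lower in knockouts at E17.5, and of these only Dcxr passed the test at E15.5, and Psrc1, Trp53inp1 and Zmat3 passed at E17.5.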

How the results depend on the processing

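Of the 22 genes of the list called at E15.5, 15 (12 risen, 3 fallen) were called in the same direction in each of 18 alternatives, and of the 24 called at E17.5, 18 (9 risen, 9 fallen) were. The same held for 3 of 5 differences between the stages over 17 alternatives and for 1 of 5 control stage changes (Plk3) over 18. Matching shares of all called genes were not computed, so these counts do not show whether the list was steadier than the rest. Upper-quartile factors left 3 fallen genes of the list at E15.5 and 2 in the control stage comparison. Library totals alone gave 10 lower differences, and 142 higher and 655 lower over all genes; in the control stage comparison they gave 3 risen and 1 fallen genes of the list, and 1486 risen and 762 fallen over all. DESeq2 gave 1 higher difference in the list and 509 over all genes, and fitting only the compared groups left 3 fallen genes in the control stage comparison. Leaving out 1 library gave 3 to 6 fallen genes of the list at E15.5; for the differences, 0 to 1 higher and 3 to 7 lower in the list, and 122 to 353 higher and 255 to 392 lower over all genes; for the control stage change, 0 to 1 risen and 1 to 4 fallen in the list, and 176 to 521 risen and 490 to 1255 fallen over all.

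Over all genes, deviations of same-numbered libraries correlated at -0.07 to 0.04. The labels do not say what the replicate numbers mark. With 2 libraries per group, these values cannot show whether same-numbered libraries shared a litter or batch. With the replicate block, 17 genes of the list rose and 6 fell at E15.5, 13 rose and 11 fell at E17.5, while 1 difference was higher (Ak1, 0.73) and 7 were lower, Ephx1 (-0.72) and Sulf2 (-0.67) among them, with 363 higher and 407 lower over all genes. Over all genes 3774 rose and 3552 fell at E15.5 and 4333 and 4265 at E17.5 with the block. Bax passed at E15.5 in that fit (0.37, adjusted p = 0.041).

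Sign changes in the knockout comparisons were limited to values that passed under neither setting. With upper-quartile factors Pidd1 was 0.043 at E15.5, and at E17.5 Btg2 was 0.007, Phlda3 0.004 and Cyfip2 0.036. Cyfip2 at E17.5 was 0.003 with DESeq2 and with its size factors, and Bax at E17.5 was -0.14 on library totals. With 1 library left out, values at E15.5 ran for Btg2 from -0.079 to 0.214, Pidd1 from -0.198 to 0.079 and Rrm2b from -0.135 to 0.175, and at E17.5 for Cdkn1a from -0.203 to 0.003, Btg2 from -0.222 to 0.091, Tnfrsf10b from -0.373 to 0.192, Bax from -0.133 to 0.266, Phlda3 from -0.164 to 0.102, Cyfip2 from -0.071 to 0.058 and Ercc5 from -0.163 to 0.035. The causes were not tested. Depth limits Cd80, Gdf15 and Trp53cor1, the genes with the fewest counts.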
